A study of Homo sapiens with 12 samples.

Results

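The genes described here make, sense and move cholesterol: the enzymes that build it from acetyl-CoA, the proteins that switch the transcription factor SREBP2 on and off, and 4 proteins of sterol uptake and transport. The list holds 28 genes, and a gene entered the analysis when at least 1 probe set of the array was annotated to it and to no other gene. That held for 26 of the 28, with 57 probe sets of their own among the 54675 on the array and 26 of its 19775 genes with such a probe set. FDFT1, the squalene synthase, had no probe set mapped to it alone, and both probe sets of CYP51A1, the lanosterol demethylase, were shared with another gene, so neither is described further. Every array of the study came from HK-2, an established human line of immortalised kidney proximal tubule epithelial cells, grown in a medium with EGF, insulin, transferrin, selenite and hydrocortisone and treated when nearly confluent. The 4 groups of 3 arrays were control vehicle for 24 h, a low dose of Aa for 24 h, control vehicle for 48 h and a low dose of Aa for 48 h. The labels abbreviate the compound as Aa, and the sources used here give no full name, dose or vehicle. The question was how exposure to a low dose of Aa changed the transcripts of a single immortalised line at these times.

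Cholesterol synthesis starts by joining acetyl-CoA units into HMG-CoA and mevalonate, goes on through the isoprenoid diphosphates to squalene, closes squalene into lanosterol, and then trims lanosterol to cholesterol. When membranes of the endoplasmic reticulum hold enough sterol, the INSIG proteins keep SCAP and the SREBP2 precursor there. When sterol is short, SCAP carries the precursor to the Golgi, where it is cut, and the freed part enters the nucleus and switches on nearly every gene of the pathway, INSIG1 among them. Sterol-laden cells use the liver X receptors instead, which switch on efflux genes and MYLIP, an E3 ubiquitin ligase that sends lipoprotein receptors to degradation. Proximal tubule cells are active in lipid oxidation and endocytosis and also make and take up cholesterol.

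Promoters of these genes typically carry a box for the factor NF-Y next to the site that SREBP2 reads, and the windows below are shown because their genes carry the results that follow. RefSeq promoter sequences (GRCh38.p14, 250 bases before each start searched) were matched for 25 of the 28 genes and for 27305 genes in all. The NF-Y box, CCAAT on either strand, was present in 16 of the 25 (64%) and in 33% of all. The first 6 windows are the 120 bases just before the most upstream RefSeq start, and the SREBF2 window is the 150 bases before it, each read 5′ to 3′ on the gene's strand. Capitals mark the NF-Y boxes and, in SREBF2 alone, also the sterol response element. TM7SF2 (chr11:65111752-65111871, plus strand), the gene with the deepest drop, SC5D (chr11:121292651-121292770, plus), MSMO1 (chr4:165327549-165327668, plus) and HMGCS1 (chr5:43313413-43313532, minus) stand for the genes that were lower with Aa at both times. NSDHL (chrX:152830943-152831062, plus) was lower at 24 h, MYLIP (chr6:16128966-16129085, plus) was higher at 48 h, and SREBF2 (chr22:41832955-41833104, plus) encodes SREBP2 itself.
TM7SF2: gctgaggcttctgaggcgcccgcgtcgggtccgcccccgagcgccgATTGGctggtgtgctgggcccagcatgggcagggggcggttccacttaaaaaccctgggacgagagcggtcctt
SC5D: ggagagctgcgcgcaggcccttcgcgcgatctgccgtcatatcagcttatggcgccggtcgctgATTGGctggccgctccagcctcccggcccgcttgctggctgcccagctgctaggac
MSMO1: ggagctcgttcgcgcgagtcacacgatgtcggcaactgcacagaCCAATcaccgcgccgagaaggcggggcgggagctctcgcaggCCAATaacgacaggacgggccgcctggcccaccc
HMGCS1: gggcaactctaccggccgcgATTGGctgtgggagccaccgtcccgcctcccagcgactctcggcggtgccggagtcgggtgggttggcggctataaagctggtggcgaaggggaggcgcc
NSDHL: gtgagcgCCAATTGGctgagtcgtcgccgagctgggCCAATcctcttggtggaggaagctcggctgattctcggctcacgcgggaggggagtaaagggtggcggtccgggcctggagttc
MYLIP: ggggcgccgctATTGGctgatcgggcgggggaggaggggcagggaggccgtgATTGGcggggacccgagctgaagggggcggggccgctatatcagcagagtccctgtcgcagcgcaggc
SREBF2: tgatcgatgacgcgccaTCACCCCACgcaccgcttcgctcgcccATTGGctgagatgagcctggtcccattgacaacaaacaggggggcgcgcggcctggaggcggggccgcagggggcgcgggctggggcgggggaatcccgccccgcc

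Letters that fit the sterol response element, TCACNCCAC on either strand, were found without a mismatch in the SREBF2 promoter only, 1 of the 25 (4%), against 0.868% of all genes. With up to 1 mismatch they were found in 9 of the 25 (36%), against 20.5% of all. The SP1 box GGGCGG was present in 21 (84%), against 42.2% of all, and the E-box CACGTG in 3 (12%), against 6.46%. Members that were lower with Aa at 24 h carried the NF-Y box in 6 of 7 matched promoters, and members that did not pass the threshold there carried it in 10 of 17, so the box was common on both sides. A match of letters is a description of the window and not evidence of binding.

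The values are log2 fluorescence intensities, so a difference of 1 is a doubling. A difference was called with limma when its p, adjusted over all 10791 genes tested by the Benjamini-Hochberg method, was under 0.05, and the brightest probe set of a gene, by its mean over all arrays, stood for it. Such p-values measure the spread between these cultures, and with 3 arrays a group their number limits the precision. Arrays with the same replicate number deviated together, so a second fit gave each number its own level (the replicate block), and its values stand beside a result where they change the call. All 26 genes passed the low-value filter, with every array at 4 or above, and the means of their probe sets ran from 5.87 (MVD) to 13.11 (MSMO1). Of the 57 probe sets, 6 lay under the filter, with means from 2.14 to 2.89, and 51 were tested.

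The defining markers put the cells in part with their label. All 4 epithelial markers were expressed, KRT18 at 13.06 and EPCAM at 13.01, but only 3 of 10 proximal tubule markers were (CDH6, PAX8 and SLC3A1), and the transporters and brush-border genes AQP1, LRP2, CUBN, SLC34A1, GGT1, ANPEP and MME lay between 2.09 and 3.03. Markers of distal nephron, endothelium and leukocytes were all under 4, while 3 of 7 fibroblast markers (DCN, LUM and COL1A1) and 1 of 4 hepatocyte markers (SERPINA1) were above it. The summed level of the proximal tubule list was 13.0 to 13.2 in the 48 h controls and 11.7 to 12.4 with Aa, and that of the fibroblast list 12.1 to 12.4 and 11.6 to 12.1. At 24 h these ranges were 13.1 to 13.5 and 12.7 to 13.1 for the proximal tubule list, and 12.2 to 12.7 and 12 to 12.3 for the fibroblast list. Probe sets for 28S ribosomal RNA were higher with Aa in 3 of 3 pairs at both times, by 0.91 at 24 h and 0.81 at 48 h. The gap between 3′ and 5′ actin probe sets, a sign of RNA quality, was larger with Aa by 0.03 and 0.12. It was larger in 2 of 3 pairs at 24 h and in 3 of 3 at 48 h. For GAPDH the same gap differed by 0.02 and 0.01. The part of these shifts in the results below was not tested, and in bulk RNA fewer cells of a kind and less transcript per cell cannot be told apart.

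At 24 h the pathway was shifted down. Of the 26 genes, 9 fell (34.6%) and 0 rose, where 12.8% of all genes tested fell, 10.3% rose and 23.1% were called in either direction. The 9 were ACAT2, HMGCS1, SQLE, LSS, TM7SF2, MSMO1, NSDHL, SC5D and DHCR7. In 23 of 26 the difference lay below 0, against 5716 of the 10791 genes tested, and its median was −0.33, against −0.02 over all genes. In 20 of the 26 the Aa array was lower in every pair, a count that was not taken over all genes. With the replicate block 16 fell and 0 rose, where 22.8% of all genes fell and 18.5% rose; the added genes were MVK, PMVK, MVD, IDI1, FDPS, INSIG1 and SCAP. Without Aa 24 h replicate 2 alone, PMVK, IDI1, INSIG1 and STARD4 also fell and DHCR7 no longer did, which made 12.

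At 48 h the same number, 9 of 26 (34.6%), fell and 1 rose. Of all genes tested, 37.8% were called then, 20.1% lower and 17.8% higher, so the share of members that fell stood less far above the rest than at 24 h. DHCR7 and NSDHL no longer passed the threshold, INSIG1 and INSIG2 now did, and MYLIP rose. The median difference was −0.15, against −0.00 over all genes, and 16 of 26 lay below 0, against 5410 of the 10791 genes tested. With the replicate block DHCR7 and PMVK joined the genes that fell, making 11 against 28.1% of all genes, and EBP and GGPS1 joined MYLIP, making 3 that rose against 26.7%. Both comparisons rest on their own controls, and 7 of 26 genes (26.9%) fell in both, where 9.2% of all genes did: ACAT2, HMGCS1, SQLE, LSS, TM7SF2, MSMO1 and SC5D.

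**Figure D1:**
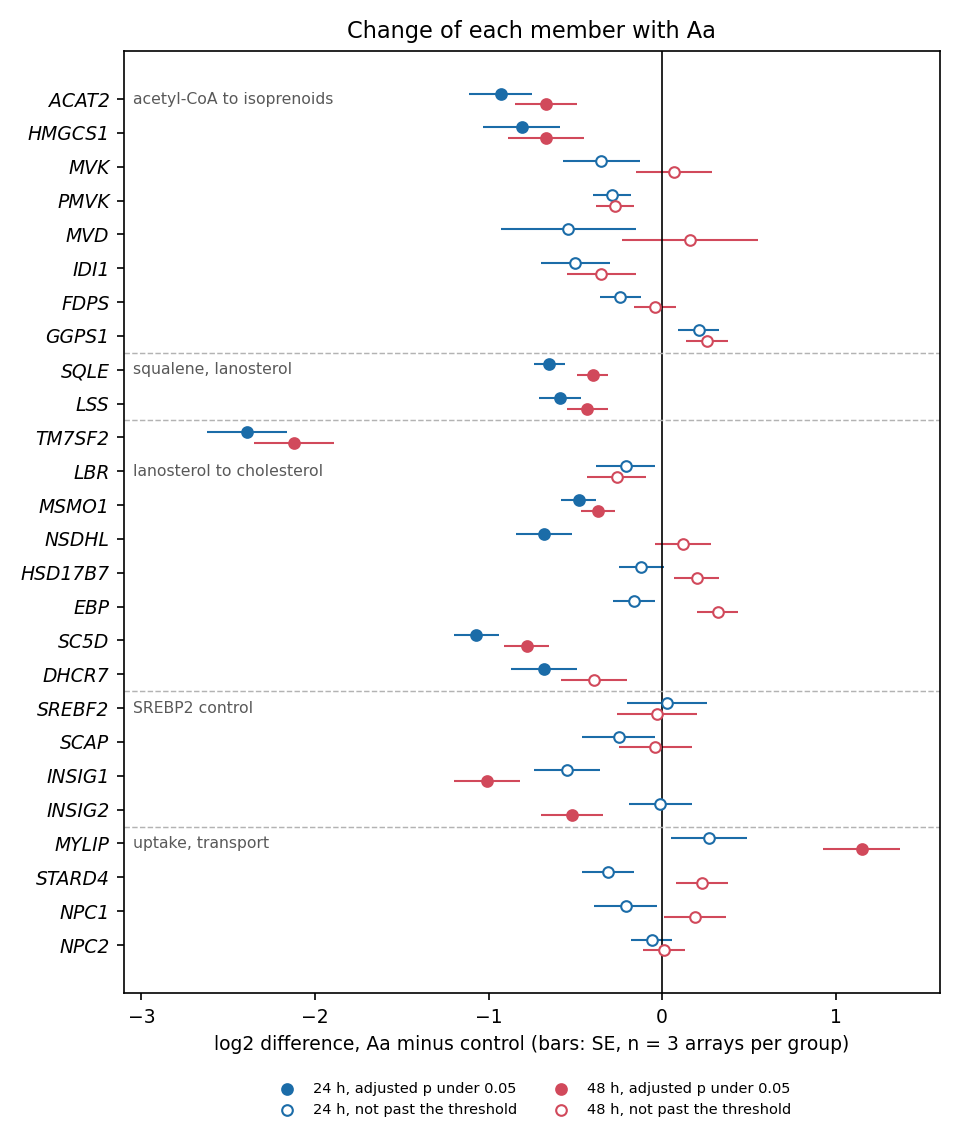
The difference between Aa and control arrays (x axis, log2, with the SE of the fit, 3 arrays per group) is drawn for the 26 genes in pathway order (y axis), with 24 h in blue, 48 h in red and filled points past an adjusted p of 0.05. TM7SF2 lies far to the left at both times (−2.39 and −2.12), most 24 h points lie left of 0, and MYLIP at 48 h (1.15) is the filled point on the right.

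The steps from acetyl-CoA to the isoprenoids were led by their entry enzymes. ACAT2 is the cytosolic thiolase that joins acetyl-CoA units, and not the sterol acyltransferase that once shared its symbol. Its values were 11.70, 11.90 and 11.94 in the 24 h controls and 10.62, 11.12 and 11 with Aa. At 48 h they were 11.34, 11.62 and 11.84 in the controls and 10.70, 11.22 and 10.86 with Aa. All Aa arrays lay under all control arrays of their time. ACAT2 fell by 0.93 (SE 0.18, limma adjusted p = 0.00438), or 1.91-fold, at 24 h and by 0.67 (adjusted p = 0.0135), or 1.59-fold, at 48 h. Without Aa 48 h replicate 1 the later difference was −0.56 (limma adjusted p = 0.056).

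HMGCS1, the cytosolic HMG-CoA synthase, makes the substrate of the reductase that sets the pace of the pathway. It stood at 11.63, 11.77 and 11.76 in the 24 h controls and at 10.66, 11.46 and 10.60 with Aa, so Aa replicate 2 was far closer to the controls than the other two. At 48 h the controls gave 11.76, 11.80 and 12.13 and the Aa arrays 10.98, 11.52 and 11.21. The groups did not overlap at either time. HMGCS1 fell by 0.81 (SE 0.22, limma adjusted p = 0.0226) at 24 h and by 0.67 (SE 0.22, limma adjusted p = 0.0353) at 48 h, and its other probe set fell as well, by 0.57 and 0.52. The earlier call was lost without any of 4 single arrays (control replicates 2 and 3, Aa replicates 1 and 3), with differences of −0.79 to −0.66 and adjusted p of 0.0629 to 0.0882. The later one was lost without any of 5 (each control, Aa replicates 1 and 3), with −0.73 to −0.54 and adjusted p of 0.0534 to 0.126.

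The mevalonate kinases and the enzymes of the isoprenoid diphosphates did not pass the threshold in the fit without the block. At 24 h the differences were −0.35 for MVK, −0.29 for PMVK, −0.54 for the decarboxylase MVD, −0.50 for the isomerase IDI1 and −0.24 for the farnesyl diphosphate synthase FDPS. With the replicate block all 5 fell (limma adjusted p = 0.0198, 0.0122, 0.0237, 0.0207 and 0.0341). On the brightest probe sets all 5 were lower with Aa in 3 of 3 pairs at 24 h. For MVK the other probe sets tested, 204056_s_at and 36907_at, differed by 0.02 and 0.01 at 24 h. Neither passed with the block (limma adjusted p = 0.892 and 0.971). With the mean of its probe sets MVK differed by −0.11 (limma adjusted p = 0.702). MVD is the dimmest of the genes, its 3 controls ran from 5.34 to 6.33, and the 95% interval of its difference, −1.41 to 0.33, was the widest of the 26. At 48 h MVK (0.07), MVD (0.16) and FDPS (−0.04) lay near 0, while PMVK (−0.27) and IDI1 (−0.35) stayed below it; of these only PMVK fell with the block (limma adjusted p = 0.0138). GGPS1, the geranylgeranyl diphosphate synthase that leads away from sterols, differed by 0.21 at 24 h and 0.26 at 48 h, and the later difference passed the threshold with the block (limma adjusted p = 0.026). Its other, dimmer probe set rose at 24 h, by 0.50 (limma adjusted p = 0.0375). The 3 genes of the list above 0 at 24 h were GGPS1, MYLIP (0.27) and SREBF2 (0.03), none past the threshold.

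Both genes measured at the squalene and lanosterol steps fell at both times, where 12.8% of all genes fell at 24 h and 20.1% at 48 h. SQLE, the squalene epoxidase and a second control point of the pathway, had the smallest SE of the 26. Its values were 12.31, 12.34 and 12.50 in the 24 h controls against 11.63, 11.89 and 11.67 with Aa, and 12.63, 12.60 and 12.67 against 12.21, 12.27 and 12.20 at 48 h. All Aa arrays were under all controls, with gaps wider than the spread within a group. SQLE fell by 0.65 (SE 0.09, limma adjusted p = 0.000988), or 1.57-fold, and then by 0.40 (SE 0.09, limma adjusted p = 0.00707), or 1.32-fold. Of its 4 probe sets 3 fell at 24 h and 2 at 48 h, and all 4 differences were negative at both times.

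LSS, the lanosterol synthase, folds squalene epoxide into the sterol ring. It gave 10.90, 10.77 and 10.71 in the 24 h controls against 10.26, 10.06 and 10.28 with Aa, and 10.88, 10.61 and 11.01 against 10.47, 10.31 and 10.43 at 48 h. The groups did not overlap at either time. LSS fell by 0.59 (SE 0.12, limma adjusted p = 0.00542) and by 0.43 (SE 0.12, limma adjusted p = 0.016). Without control 48 h replicate 3 the later difference was −0.34 (limma adjusted p = 0.056). A dimmer probe set of LSS, 211018_at, moved the other way: its values were 5.51, 5.31 and 6.01 in the 24 h controls against 6.81, 6.00 and 6.95 with Aa, and 5.44, 5.30 and 5.63 against 7.48, 7.37 and 7.27 at 48 h. It rose by 0.98 (SE 0.24, limma adjusted p = 0.0149) and by 1.92 (SE 0.24, limma adjusted p = 0.000283) over single probe sets. The third, 211019_s_at, differed by −0.69 and −0.47, past the threshold with the replicate block (limma adjusted p = 0.000373 and 0.00157). So the brighter probe sets of LSS were lower with Aa and the dimmest was higher, and with their mean in place of the brightest neither call was left (−0.10, limma adjusted p = 0.742, at 24 h and 0.34, limma adjusted p = 0.176, at 48 h). What the dim probe set hybridises with was not tested.

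The steps from lanosterol to cholesterol held 5 of the 9 genes that fell at 24 h, and the largest difference of the list. Of the 8 genes measured there, 5 fell at 24 h (62.5%, against 12.8% of all genes) and 3 at 48 h (37.5%, against 20.1%). TM7SF2 encodes a sterol reductase of the endoplasmic reticulum that acts just after the lanosterol demethylase. Its values were 8.69, 8.28 and 8.31 in the 24 h controls and 6.01, 6.30 and 5.81 with Aa. At 48 h the controls gave 8.85, 8.33 and 8.31 and the Aa arrays 6.37, 6.82 and 5.94. The highest Aa array lay more than 1 log2 unit under the lowest control at each time. TM7SF2 fell 5.24-fold at 24 h (−2.39, SE 0.23, limma adjusted p = 0.000125) and 4.35-fold at 48 h (−2.12, SE 0.23, limma adjusted p = 0.000123). Counted from the lowest difference, it ranked 35 of 10791 genes at 24 h and 132 at 48 h, by its only probe set.

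LBR, the lamin B receptor of the nuclear envelope, carries the same sterol reductase activity. It gave 12.18, 12.02 and 12.02 in the 24 h controls against 12.05, 12.05 and 11.50 with Aa, and 12.33, 12.37 and 11.95 against 11.99, 12.12 and 11.74 at 48 h. The groups overlapped at both times. Its differences were −0.21 (95% interval −0.59 to 0.17) and −0.26 (−0.64 to 0.12), which did not pass the threshold. The intervals of TM7SF2, −2.9 to −1.88 and −2.63 to −1.61, lay wholly below those of LBR.

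**Figure D2:**
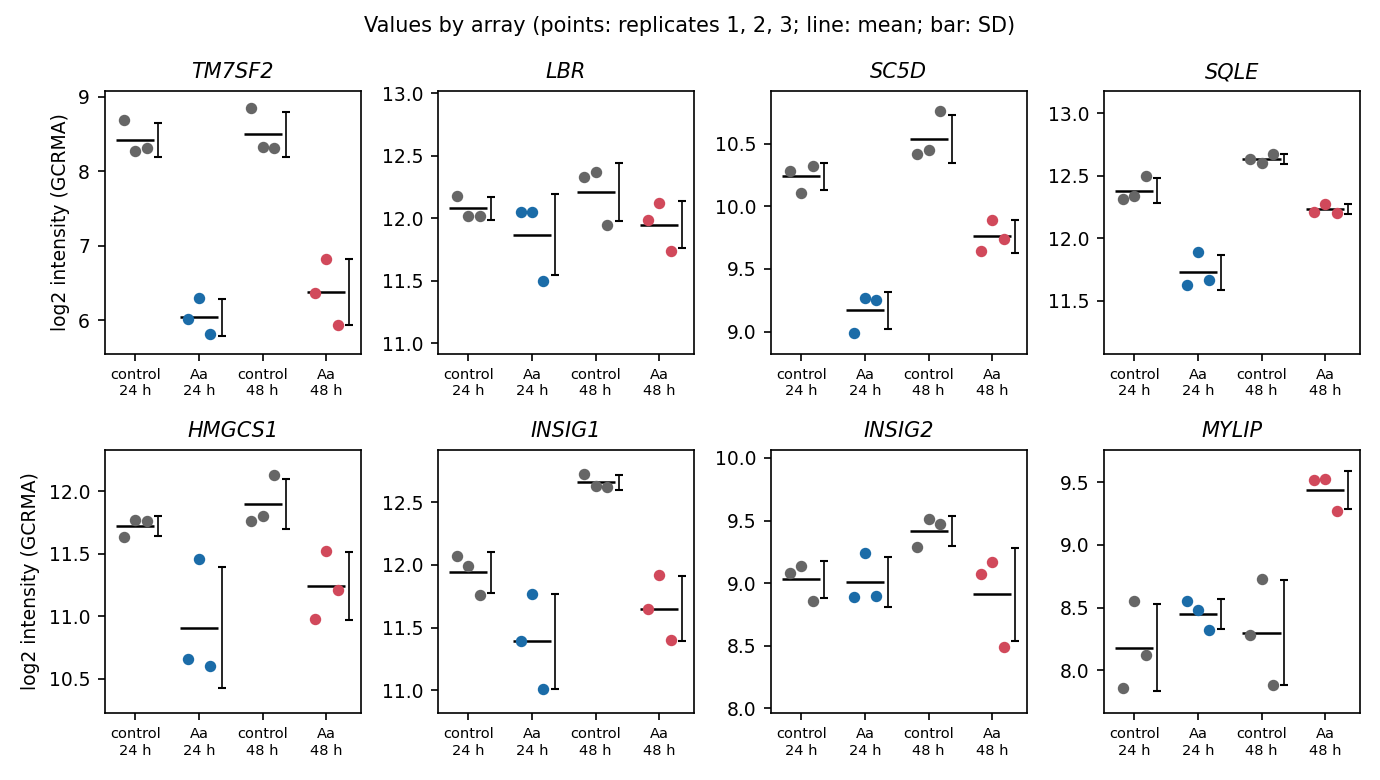
Each panel shows the 12 arrays of a gene (y axis, log2 intensity, with its own range), points being replicates 1, 2 and 3 from left to right, lines the means and bars the SD. In TM7SF2, SC5D, SQLE and HMGCS1 all Aa points lie under the controls of their time, LBR overlaps, INSIG2 overlaps at 24 h and is apart at 48 h, and MYLIP stands above its controls at 48 h.

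SC5D, the sterol desaturase near the end of the pathway, gave the next largest fall at 24 h. Its values were 10.28, 10.11 and 10.32 in the 24 h controls and 8.99, 9.27 and 9.25 with Aa. At 48 h they were 10.42, 10.45 and 10.76 in the controls and 9.64, 9.89 and 9.74 with Aa. No Aa array reached a control. SC5D fell 2.09-fold (−1.07, SE 0.13, limma adjusted p = 0.000351) and 1.72-fold (−0.78, SE 0.13, limma adjusted p = 0.000967). Its other probe set, 215064_at, is dimmer and was higher with Aa: 4.56, 5.16 and 5.27 in the 24 h controls against 5.92, 6.10 and 6.04, and 4.66, 5.58 and 5.86 against 6.31, 6.16 and 6.80 at 48 h. It rose by 1.02 (SE 0.30, limma adjusted p = 0.0302) and by 1.06 (SE 0.30, limma adjusted p = 0.0191). The direction of SC5D therefore rests on the brighter probe set. With the mean of both neither call was left (−0.02, limma adjusted p = 0.951, at 24 h and 0.14, limma adjusted p = 0.586, at 48 h).

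MSMO1, a methylsterol monooxygenase that takes part in the removal of methyl groups, stood at 13.15, 13.06 and 13.14 in the 24 h controls and 12.76, 12.72 and 12.42 with Aa. At 48 h it stood at 13.53, 13.57 and 13.48 in the controls and 13.15, 13.22 and 13.09 with Aa. The groups did not overlap within a time, but the 48 h Aa arrays reached the level of the 24 h controls. MSMO1 fell by 0.48 (SE 0.10, limma adjusted p = 0.00653) and by 0.37 (SE 0.10, limma adjusted p = 0.0148). Without Aa 48 h replicate 3 the later difference was −0.34 (limma adjusted p = 0.0536).

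NSDHL, the sterol dehydrogenase that works with MSMO1, was lower with Aa at 24 h and overlapped the controls at 48 h. Its values were 9.80, 9.80 and 10.02 in the 24 h controls against 9.14, 9.05 and 9.40 with Aa, with no overlap. At 48 h the controls gave 9.41, 9.32 and 9.89 and the Aa arrays 9.60, 9.59 and 9.80, which overlapped. NSDHL fell by 0.68 (SE 0.16, limma adjusted p = 0.0104) at 24 h and differed by 0.12 (95% interval −0.22 to 0.47) at 48 h. The test between the times did not pass (limma adjusted p = 0.13, and 0.00758 with the replicate block). The controls had means of 9.88 at 24 h and 9.54 at 48 h, and the Aa arrays of 9.2 and 9.66. Its other probe set did likewise, with −0.50 (limma adjusted p = 0.0045) and 0.03. HSD17B7, the ketosteroid reductase of the same demethylation complex, differed by −0.12 and 0.20 and did not pass the threshold at either time.

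DHCR7, which makes cholesterol from its last precursor in this branch, gave 10.81, 10.51 and 10.98 in the 24 h controls against 10.10, 9.78 and 10.38 with Aa, and 10.70, 10.47 and 10.98 against 10.42, 10.07 and 10.50 at 48 h. The groups were apart at 24 h and overlapped at 48 h, although each Aa array was lower than its pair partner at both times. DHCR7 fell by 0.68 (SE 0.19, limma adjusted p = 0.0285) at 24 h, and its other probe set by 0.65. The call was lost without any of 4 single arrays of that time (control replicates 1 and 3, Aa replicates 1 and 2), with −0.69 to −0.53 and adjusted p of 0.0724 to 0.104. At 48 h the difference was −0.39 (limma adjusted p = 0.142, and 0.00114 with the replicate block). EBP, the sterol isomerase, differed by −0.16 at 24 h and by 0.32 at 48 h, which did not pass (limma adjusted p = 0.0625). It passed with the block (0.00636), with array medians centred (0.0442), with quantile normalisation (0.0491), with a trended, robust variance (0.0389), and without control 48 h replicate 3 (0.44, limma adjusted p = 0.0135), while the mean of its probe sets did not pass. Its probe set 202735_at differed by −0.19 at 24 h and 0.15 at 48 h, and 213789_at by −0.38 and −0.26.

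Among the SREBP2 control genes none of 4 passed the threshold at 24 h, where 12.8% of all genes fell, and 2 of 4 fell at 48 h, where 20.1% did. With the replicate block 2 of 4 fell at each time, where 22.8% of all genes fell at 24 h and 28.1% at 48 h. INSIG1, a direct SREBP2 target that holds SCAP back, gave 12.07, 11.99 and 11.76 in the 24 h controls against 11.39, 11.77 and 11.01 with Aa. At 48 h the controls gave 12.73, 12.63 and 12.62 and the Aa arrays 11.65, 11.92 and 11.40. The groups overlapped slightly at 24 h and were far apart at 48 h. The control means were 11.94 and 12.66 at the 2 times, and the Aa means 11.39 and 11.65. INSIG1 differed by −0.55 at 24 h (SE 0.19, limma adjusted p = 0.054, and 0.00875 with the replicate block) and fell by 1.01 at 48 h (SE 0.19, limma adjusted p = 0.00203), or 2.01-fold. Its other probe sets both fell at 24 h, by 1.02 (limma adjusted p = 0.000659) and 0.67 (limma adjusted p = 0.0178), and all 3 fell at 48 h. At 24 h the brightest also passed without Aa 24 h replicate 2, Aa 48 h replicate 2 or Aa 48 h replicate 3.

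INSIG2, the homolog whose transcription is not set by SREBP2 in most cells, passed the threshold at 48 h only. Its values were 9.08, 9.14 and 8.86 in the 24 h controls against 8.89, 9.24 and 8.90 with Aa, and 9.29, 9.51 and 9.47 against 9.07, 9.17 and 8.49 at 48 h. The groups overlapped at 24 h (−0.01, 95% interval −0.40 to 0.37) and were apart at 48 h, where Aa replicate 3 was the lowest array. INSIG2 fell by 0.52 at 48 h (SE 0.18, limma adjusted p = 0.0402). The test of the difference between the times did not pass (−0.50, limma adjusted p = 0.394, and 0.117 with the replicate block). The 48 h call was lost in more alternatives than any other of the list: leaving out any of 7 single arrays (control 24 h replicates 1 and 2, all 3 controls of 48 h, and Aa 48 h replicates 1 and 3) gave −0.60 to −0.30 and adjusted p of 0.0502 to 0.138.

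SREBF2 itself, by its brightest probe set, and SCAP did not pass the threshold. The brightest SREBF2 probe set differed by 0.03 (95% interval −0.48 to 0.55) at 24 h and −0.03 (−0.54 to 0.48) at 48 h. Both intervals include differences such as that of MSMO1 at 48 h (−0.37). The other SREBF2 probe sets had negative differences. For 242748_at they were −0.33 at 24 h and, past the threshold, −0.87 at 48 h (limma adjusted p = 0.0117), and for 201248_s_at −0.44 and −0.41, which passed with the replicate block (limma adjusted p = 0.011 and 0.0118). With the mean of its probe sets SREBF2 passed at 48 h (−0.44, limma adjusted p = 0.0262). SCAP differed by −0.25 and −0.04, and fell at 24 h with the block only (limma adjusted p = 0.034). The nuclear form of SREBP2, which is set by cutting of the protein, was not measured by these arrays.

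Of the uptake and transport genes, MYLIP alone passed the threshold. Its values were 7.86, 8.55 and 8.12 in the 24 h controls against 8.55, 8.48 and 8.32 with Aa, and 8.28, 8.73 and 7.88 against 9.52, 9.53 and 9.27 at 48 h. The groups overlapped at 24 h, and at 48 h every Aa array was above every control. MYLIP rose 2.21-fold at 48 h (1.15, SE 0.22, limma adjusted p = 0.00228), while the difference at 24 h was 0.27 (95% interval −0.20 to 0.75). Of its 5 probe sets tested, 3 rose at 48 h, the other two by 1.26 and 0.92. A probe set near background, 228097_at, differed by −0.06. STARD4, a carrier of free sterol between membranes that SREBP2 induces, differed by −0.31 at 24 h and 0.23 at 48 h. NPC1 and NPC2, which pass cholesterol out of the late endosome, differed by −0.21 and 0.19, and by −0.06 and 0.01. None of these 3 passed the threshold.

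Counted over single probe sets, 16 of the 51 tested fell and 3 rose at 24 h, where 11.4% of all single probe sets fell and 10.9% rose. At 48 h 14 fell and 5 rose, where 17.9% fell and 16% rose. The 3 that rose at 24 h were probe sets of LSS, SC5D and GGPS1 other than the brightest, with means over all arrays of 6.26, 5.7 and 8.19. The probe set counts are not independent of the gene counts, since 14 of the genes have several probe sets.

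**Figure D3:**
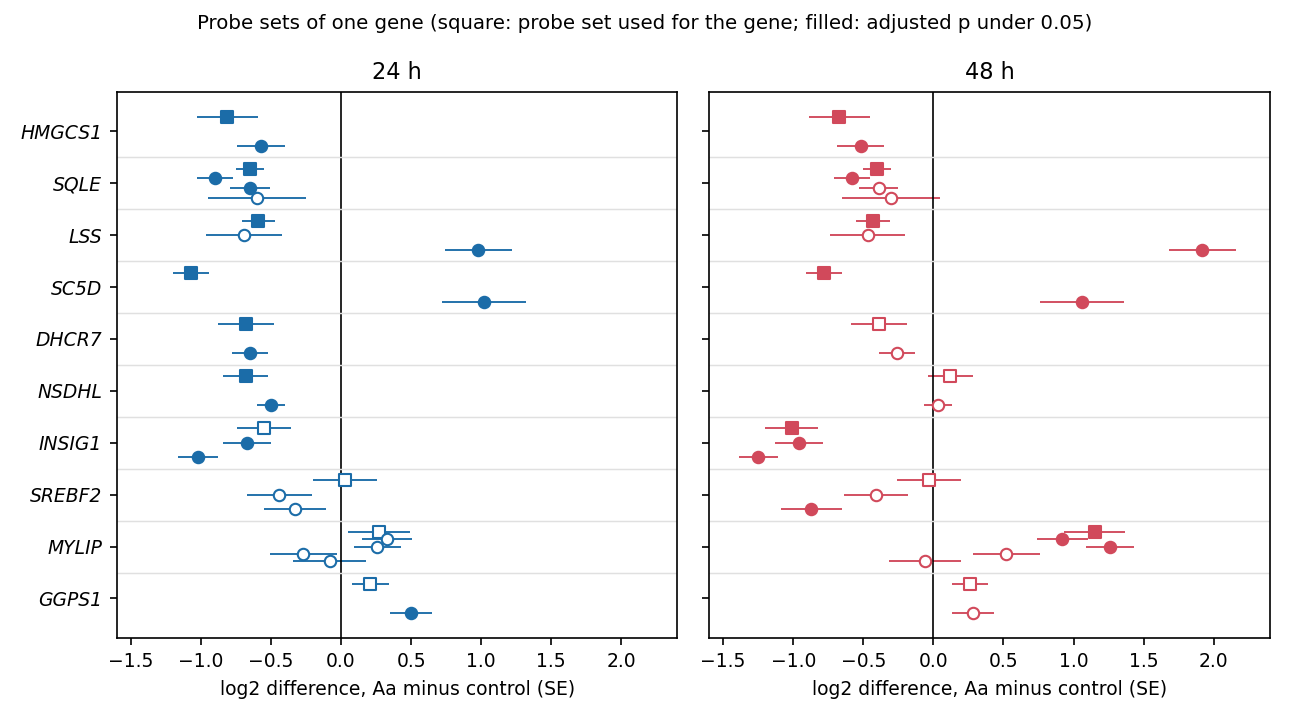
Differences between Aa and control arrays (x axis, log2, with SE) are drawn for each probe set tested of 10 genes (y axis), brightest at the top within a gene, squares for the probe set that stands for the gene and filled symbols past an adjusted p of 0.05 over single probe sets. HMGCS1, SQLE, NSDHL and INSIG1 show like signs within a time, whereas the lowest symbols of LSS (0.98 and 1.92) and SC5D (1.02 and 1.06) lie on the other side of 0.

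Whether the response differed between the times was tested as the change at 48 h minus the change at 24 h. Of the 26 genes, 0 passed with limma (4 had an unadjusted p under 0.05), where 0.825% of all genes were called and 1534 of 10791 had an unadjusted p under 0.05. The median of this difference was 0.23, against 0.01 over all genes. In 22 of 26 genes the value was higher at 48 h than at 24 h, against 5549 of the 10791 tested. All 9 genes that fell at 24 h had a smaller drop at 48 h, a direction that selection on the 24 h values favours. With the replicate block 3 genes passed, against 11% of all genes: NSDHL by 0.80 (limma adjusted p = 0.00758), MYLIP by 0.87 (limma adjusted p = 0.0415) and EBP by 0.48 (limma adjusted p = 0.0259). For EBP this held on its brightest probe set only. INSIG1 and INSIG2 went the other way, with lower values at 48 h, and did not pass in either fit.

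The controls were compared with each other to show the drift of untreated cells between 24 h and 48 h. None of the 26 passed (6 had an unadjusted p under 0.05), and 0.5% of all genes were called (1800 of 10791 had an unadjusted p under 0.05). With the replicate block 3 passed, against 17.8% of all genes: INSIG1 was higher at 48 h by 0.72 (limma adjusted p = 0.00833), MSMO1 was higher by 0.41 (limma adjusted p = 0.0135) and NSDHL was lower by 0.34 (limma adjusted p = 0.0243). The comparisons with Aa use these same controls.

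**Figure D4:**
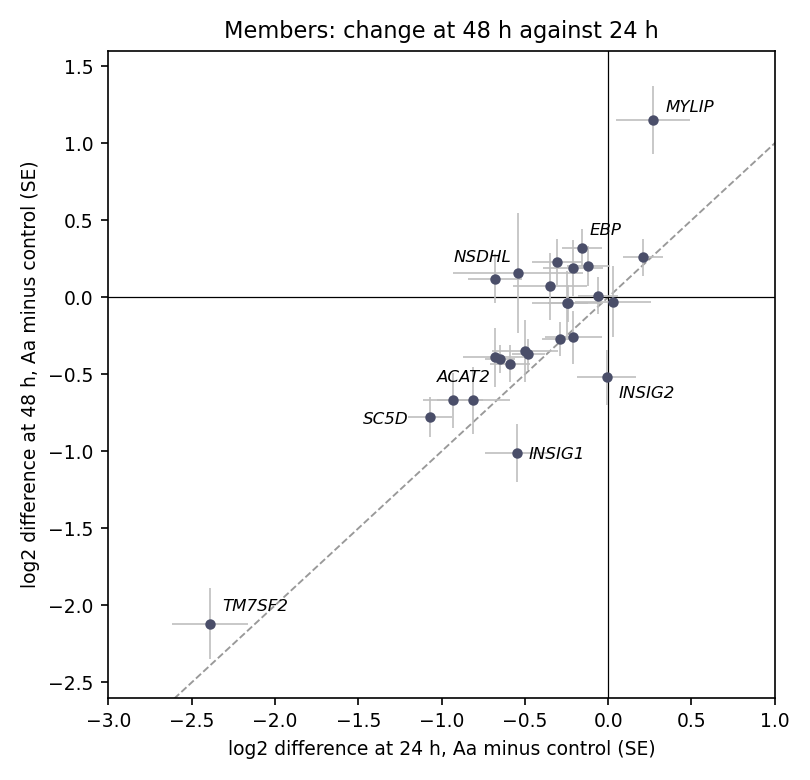
The difference between Aa and control arrays at 48 h (y axis, log2, with SE) is plotted against that at 24 h (x axis, log2, with SE) for the 26 genes, and the dashed line marks equal differences. Most points lie above the line, TM7SF2 lies at the far lower left, MYLIP is at 0.27 and 1.15, and INSIG1 and INSIG2 lie below the line.

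Neighbouring pathways were read from lists of genes that share intermediates or regulators with cholesterol synthesis. Fatty acid synthesis under SREBP1, the sister factor, had 11 genes tested, with 3 lower and 0 higher at 24 h, 5 lower and 1 higher at 48 h, and medians of −0.10 and −0.12; with the replicate block 5 were lower at 24 h. The counts of these lists are to be read against all genes, of which 12.8% were lower and 10.3% higher at 24 h, and 20.1% and 17.8% at 48 h. Counts with the block are to be read against 22.8% lower and 18.5% higher at 24 h, and 28.1% and 26.7% at 48 h. ELOVL6, an elongase of saturated fatty acids, fell by 1.74 (limma adjusted p = 0.000136) at 24 h and fell by 1.61 at 48 h, and ACSS2, which makes cytosolic acetyl-CoA from acetate, fell by 0.74 and 0.48. SCD, the stearoyl-CoA desaturase, fell by 0.44 at 48 h and differed by −0.18 at 24 h. PNPLA3 rose by 0.60 at 48 h (limma adjusted p = 0.00394) and differed by 0.03 at 24 h. The list on SREBP processing and sterol-regulated degradation had 14 tested, with 3 lower and 1 higher at 24 h and 5 lower and 2 higher at 48 h. In this fit the shares of lower genes lay above those of all genes and the shares of higher genes under them. With the block 3 were lower and 3 higher at 24 h, where neither statement held, and 6 lower and 3 higher at 48 h, where both did. Its largest change was in SEC24D, a subunit of the coat that buds vesicles from the endoplasmic reticulum, which fell by 0.75 and 1.36. VCP, which pulls ubiquitinated proteins out of the membrane, fell by 0.48 and 0.35, and SPRING1, needed for the protease that cuts SREBPs, rose by 0.59 at 48 h. MBTPS2 fell by 0.40 at 48 h (limma adjusted p = 0.0148) and differed by −0.18 at 24 h.

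Sterol storage, transport and efflux had 14 genes tested, with 3 higher and 2 lower at each time (5 higher at 48 h with the block) and medians of 0.04 and 0.05. Without the block the 48 h shares were near those over all genes. SOAT1, the acyltransferase that stores cholesterol as ester, rose by 0.61 and 0.58. OSBP, an oxysterol-binding lipid carrier, rose by 0.27 and 0.45. The lipoprotein receptors LRP8 and VLDLR moved oppositely, LRP8 rising by 0.98 and 0.41 and VLDLR falling by 0.82 and 0.62. The isoprenoid branch had 12 tested, with 1 lower and 0 higher at 24 h and 1 lower and 3 higher at 48 h (with the block 2 lower and 1 higher, then 2 lower and 3 higher). Its shares of lower genes lay under those of all genes. There PDSS1 and PDSS2, the subunits of the enzyme that makes the tail of coenzyme Q, moved in opposite directions at 48 h, by 0.78 (limma adjusted p = 0.0179) and −2.09 (limma adjusted p = 0.00184). COQ2, the next enzyme, fell by 0.61 at 24 h, and ZMPSTE24, a protease of farnesylated lamin precursors, rose by 0.42 at 48 h. No test between lists was run.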

How the data were processed

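RNA from 12 HK-2 cultures was hybridised to 1-colour Affymetrix arrays. The deposited table holds log2 intensities per probe set, which the authors summarised with GCRMA, per the submitters' processing notes (version not given in the sources used here). The scale was read from the values, 0.82 to 16.25 with array medians of 2.93 to 3.01, and no further normalisation was applied. Of 54675 probe sets, 41097 had 1 gene symbol in the platform annotation, 1801 had several and 11777 none. Probe sets with a mean of at least 4 entered (19623), and the one with the highest mean stood for a gene (10791 genes). limma 3.58.1 (R 4.3.3) fitted all 4 groups together with eBayes (8 residual and 2.76 prior degrees of freedom) and Benjamini-Hochberg adjustment. On simulated data for the 24 h comparison (10791 genes, 200 changed), limma recovered 92% of 50 genes raised 4-fold, 82% of those raised 2-fold, 76% of those lowered 2-fold and 48% of those raised 1.5-fold. Also called were 18 genes that had not been changed. The simulated noise was independent between arrays, whereas same-numbered arrays of the data deviated together.

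Same-numbered arrays of different groups correlated at 0.37 to 0.60 in their deviations from the group means (18 pairs), others at −0.49 to −0.03 (36 pairs), so the numbers were taken to pair the arrays by these data, and a fit with the replicate number as a block was run beside the first. Such a block moved the 24 h count from 9 to 16. The genes of the list and the neighbouring lists were chosen with earlier results of these data known. All 28 listed genes are accounted for. Values of every array are given for those called or with probe sets called in opposite directions, and up to 4 genes of each neighbouring list, those with the smallest p, are named. Alternatives covered the filter, the probe set rule, scaling, the variance model, the samples fitted, single arrays and whole replicates. Some genes of the pathway are not analysed here. Promoter letters came from RefSeq (GRCh38.p14).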

Additional observations from a re-analysis of the deposited data

Results flagged for a closer look

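In the fit with the replicate number as a block, 3 genes changed differently at the 2 times by the test of the difference itself (the change at 48 h minus the change at 24 h, limma). NSDHL differed by 0.80 (adjusted p = 0.00758), being lower with Aa at 24 h in 3 of 3 pairs and lower in 1 of 3 at 48 h. MYLIP differed by 0.87 (adjusted p = 0.0415), being higher with Aa in 3 of 3 pairs at 48 h and in 2 of 3 at 24 h. EBP differed by 0.48 (adjusted p = 0.0259), its brightest probe set being lower in 3 of 3 pairs at 24 h and higher in 3 of 3 at 48 h. Its other probe sets tested, 202735_at and 213789_at, did not pass this test (limma adjusted p = 0.0906 and 0.688 with the block). The probe set 213789_at was lower with Aa in 3 of 3 pairs at both times. Without the block none of the 3 passed (limma adjusted p = 0.13, 0.228 and 0.238).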

How the results depend on the processing

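Up to 25 alternatives were run per gene. Of 19 calls, 3 kept the threshold under every alternative run for them (SQLE and TM7SF2 at 24 h, TM7SF2 at 48 h). TM7SF2 has 1 probe set of its own, so the alternatives that change the probe set could not test it. The replicate block moved the number called at 24 h from 9 to 16, in the change between the times from 0 to 3 and in controls over time from 0 to 3, ended none of the 19 calls, and changed no call other than those named above. Leaving out arrays gave 4 to 12 called at 24 h (4 without replicate 1 of every group, 5 without replicate 3), 3 to 10 at 48 h (3 without replicate 1, 5 without replicate 3) and 0 to 1 in the change between the times (1 without control 48 h replicate 3). A trended, robust variance gave 1 in controls over time. The median at 48 h was −0.04 with the mean of a gene's probe sets, and −0.04 without probe sets whose names end in _x_at, _s_at or _a_at, which left 20 genes. Directions turned for SC5D (1.02 at 24 h and 1.06 at 48 h without those probe sets, 0.14 at 48 h with the mean), LSS (0.34 at 48 h with the mean) and MYLIP (−0.06 at 48 h without those probe sets). For MYLIP that setting leaves a probe set near background. Scaling by array medians or quantiles turned no direction of a call, but centring on the medians ended that of INSIG2 at 48 h (limma adjusted p = 0.0568), and both added EBP at 48 h. The mean of probe sets ended the calls of LSS and SC5D at both times and added SREBF2 at 48 h and INSIG1 and GGPS1 at 24 h. Without the low-value filter, DHCR7 at 24 h, HMGCS1 at both times and INSIG2 at 48 h lost theirs (limma adjusted p of 0.056 to 0.0809). With only the 2 groups compared, HMGCS1 at 24 h and LSS and INSIG2 at 48 h did (limma adjusted p = 0.0522, 0.0524 and 0.0905). The number of arrays limits these results, as does signal near background for MVD and for dim probe sets, such as 211018_at of LSS and 215064_at of SC5D.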

Other observations

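Taken pair by pair, the median difference over the 26 genes was −0.35, −0.22 and −0.50 in replicates 1, 2 and 3 at 24 h, with 24, 22 and 22 genes lower with Aa. At 48 h it was −0.20, −0.07 and −0.22, with 16, 14 and 19 lower. Over all genes tested the medians of single pairs ran from −0.03 to 0.01, and the counts of lower genes were not taken there. Replicate 2 had the smallest median at both times. The 26 genes are short, with a median span of 21.2 kb in the RefSeq annotation (4.4 for TM7SF2, the shortest, to 80.3 for the longest) against 30.5 kb over 10785 genes tested, and those that fell at 24 h had a median of 21.8 kb. Across the 26 genes the differences at 24 h and 48 h had a Pearson r of 0.84, and of 0.70 without TM7SF2, given as a description, since genes share arrays and are not replicates.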
